A study of Mus musculus with 8 samples.

Results

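The Aurora and Polo-like kinases, the Aurora A activator Bora and the chromosomal passenger genes were followed in mouse oocytes with and without BAF250a. They were chosen by name as 10 genes of the 54838 in the count table: Aurka, Aurkb, Aurkc, Plk1, Plk2, Plk4, Bora, Incenp, Birc5 and Cdca8. All 10 were found under their Ensembl identifiers, and all 10 passed the filter on low counts that kept 15572 genes.

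Oocytes were sequenced as pools of 5 to 10 per library, in 8 libraries with 2 in each of 4 groups. The groups were knockout MII and control MII, arrested in metaphase of the second meiotic division, and knockout GV and control GV, held in prophase with an intact germinal vesicle. All were of the C57BL/6 strain, and the genotypes were labelled BAF250aGKO in knockout and wildtype in control libraries. Per the series title the knockout was made with Gdf9-cre, a recombinase driven by the promoter of an oocyte growth factor, so the deletion is meant for growing oocytes and not for the surrounding follicle. BAF250a is the protein of Arid1a, a subunit of the BAF chromatin remodelling complex. The age of the mice, the floxed exon and whether replicate pools came from separate animals could not be read from the labels. The p-values therefore cover the spread between pools, which may be technical.

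Aurora and Polo kinases phosphorylate spindle, centrosome and kinetochore proteins during cell division. Mouse oocytes build their spindles without centrioles, from many microtubule-organising centres on which Aurora A and Polo-like kinase 1 act. In the chromosomal passenger complex an Aurora B or Aurora C catalytic subunit binds the scaffold INCENP, with survivin (Birc5) and borealin (Cdca8) placing it on chromosomes, where it corrects faulty attachments of chromosomes to microtubules. Aurora C is largely restricted to germ cells and early embryos, and Bora binds Aurora A and helps it to activate Polo-like kinase 1.

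Arid1a, the targeted gene, was at 4.87 and 12.9 CPM (read counts relative to library size after TMM scaling between libraries) in knockout GV, against 380 and 458 CPM in control GV. It was at 33.0 and 21.7 CPM in knockout MII and at 1617 and 1293 CPM in control MII, so each library matched the genotype in its label. Libraries held 19587421 to 33289150 reads in genes. TMM factors were lowest in knockout GV library 1, at 0.779, and highest in control GV library 2, at 1.22. They were 0.919 to 1.08 in the other libraries. The 10 oocyte markers summed to 19934 to 44551 CPM of all reads in genes in every library. Those of granulosa and cumulus cells, 16 in number and none at 0 throughout, summed to 114 and 100.3 CPM in knockout MII, 159 and 175 CPM in control MII, 65.5 and 84.8 CPM in knockout GV, and 159 and 125 CPM in control GV. Few genes held most of these sums. In knockout MII, Cyp19a1 was at 63.4 and 57.0 CPM and Nr5a2 at 39.6 and 41.1 CPM. Foxl2, Fshr, Inhba, Ptgs2 and Lhcgr were at 0 in both knockout MII libraries. In control GV library 1 the highest was Inha, at 72.2 CPM. The part of granulosa and cumulus transcripts in the results below was not tested.

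Aurkb and Aurkc encode near relatives that can replace each other in the passenger complex, so their counts were first checked for shared sequence. Their coding sequences are 1035 and 945 bases long and identical at 74.7% of 941 aligned bases, with 25 bases as the longest shared run. Aurka is further away, at 68.5% to Aurkb and 69.8% to Aurkc. The stretch around the longest run is shown from the GENCODE M21 transcripts, in the coding sense, with the shared bases in capitals. In Aurkb the run lies at chr11:69048744-69048768 and in Aurkc at chr7:6999992-7000016 (mm10, plus strand, coding exons). In both genes the 30 bases before the run cross an exon junction, and the 30 bases after it do not.
Aurkb: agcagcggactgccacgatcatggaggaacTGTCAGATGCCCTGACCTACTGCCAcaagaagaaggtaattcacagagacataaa
Aurkc: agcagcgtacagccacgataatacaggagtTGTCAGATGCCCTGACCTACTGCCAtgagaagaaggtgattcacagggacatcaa
No other run shared by their coding sequences is longer, and the labels give no read length.

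Promoter windows, from 250 bases before to 50 after the annotated start, were in the RefSeq table (GRCm38.p6) for 7 of the 10 genes. Aurkb, Bora and Incenp had no entry. They were searched for TTTGAA, the core of the element that many cell-division genes share, and for CCAAT, the box bound by NF-Y, on both strands. TTTGAA was found in Aurka, Plk1 and Cdca8, starting 32, 30 and 13 bases after the start, and in 17.9% of 32851 promoter windows. CCAAT was found in those genes and in Aurkc, and in 37.4% of windows; both motifs were in 6.95% of windows. In Cdca8 a CCAAT on the opposite strand shares a base with TTTGAA. Neither motif was in the windows of Plk2, Plk4 or Birc5. All windows follow RefSeq starts, which can differ from the GENCODE gene positions given below. The Plk4 window ends at 40800000, before the GENCODE start at 40800019. The Cdca8 window, chr4:124936868-124937167, lies inside the GENCODE gene, which begins at 124939311 on the minus strand. Windows at the GENCODE starts were not searched. Aurka, Plk1 and Birc5 are shown because each fell at MII in both genotypes, the first pair with both motifs and Birc5 with neither, and Plk4 because it differed between genotypes at GV, with motif letters in capitals. Each is read along its gene's strand, from chr2:172370521-172370820 (minus), chr7:122159185-122159484 (plus), chr11:117848987-117849286 (plus) and chr3:40799701-40800000 (plus).
Aurka: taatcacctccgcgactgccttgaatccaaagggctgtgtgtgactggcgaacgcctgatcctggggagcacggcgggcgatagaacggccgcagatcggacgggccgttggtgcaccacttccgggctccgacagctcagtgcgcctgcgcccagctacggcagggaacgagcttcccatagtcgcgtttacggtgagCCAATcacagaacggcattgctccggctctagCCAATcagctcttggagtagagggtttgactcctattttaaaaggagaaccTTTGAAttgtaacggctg
Plk1: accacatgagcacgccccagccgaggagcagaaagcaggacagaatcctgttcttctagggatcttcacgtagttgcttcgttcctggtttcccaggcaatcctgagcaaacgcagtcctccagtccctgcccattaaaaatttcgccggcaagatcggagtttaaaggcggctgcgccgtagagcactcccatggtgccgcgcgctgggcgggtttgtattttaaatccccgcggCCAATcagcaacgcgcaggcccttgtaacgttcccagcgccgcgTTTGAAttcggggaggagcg
Birc5: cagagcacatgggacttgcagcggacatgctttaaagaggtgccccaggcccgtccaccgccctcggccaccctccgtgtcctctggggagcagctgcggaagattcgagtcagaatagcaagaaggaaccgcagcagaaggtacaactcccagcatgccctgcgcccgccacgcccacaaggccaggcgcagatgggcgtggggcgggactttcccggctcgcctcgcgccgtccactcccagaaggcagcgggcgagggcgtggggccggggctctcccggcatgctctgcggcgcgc
Plk4: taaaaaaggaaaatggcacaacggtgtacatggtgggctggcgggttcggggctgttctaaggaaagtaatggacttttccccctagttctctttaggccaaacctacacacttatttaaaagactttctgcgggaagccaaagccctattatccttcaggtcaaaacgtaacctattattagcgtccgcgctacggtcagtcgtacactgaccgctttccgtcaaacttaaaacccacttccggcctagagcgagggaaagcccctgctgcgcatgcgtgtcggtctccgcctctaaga

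Read counts are compared between genes only per kilobase of annotated exon. Aurkc stood first in MII oocytes, at 573 ± 131 CPM per kb in knockout MII and 710 ± 75.2 in control MII (mean ± SD, n = 2 each, as for all group means here). Plk1 came next, at 130 ± 16.1 in knockout MII and 207 ± 14.0 in control MII, and the libraries of Aurkc and Plk1 did not overlap. In GV oocytes the order differed. Birc5 led in knockout GV at 464 ± 224 CPM per kb, with Plk1 at 423 ± 90.2, and their libraries overlapped. In control GV, Plk1 led at 419 ± 114 and Aurkc followed at 380 ± 94.6, again with overlapping libraries. Plk2 was last in each of the 4 groups, between 0.0440 and 0.342 CPM per kb on average. In pools of whole oocytes such relative levels cannot tell fewer contributing oocytes from less RNA per oocyte. Rises and falls between stages below are likewise changes relative to the scaled library size. Changes in the amount of RNA per oocyte were not tested.

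**Figure D1:**
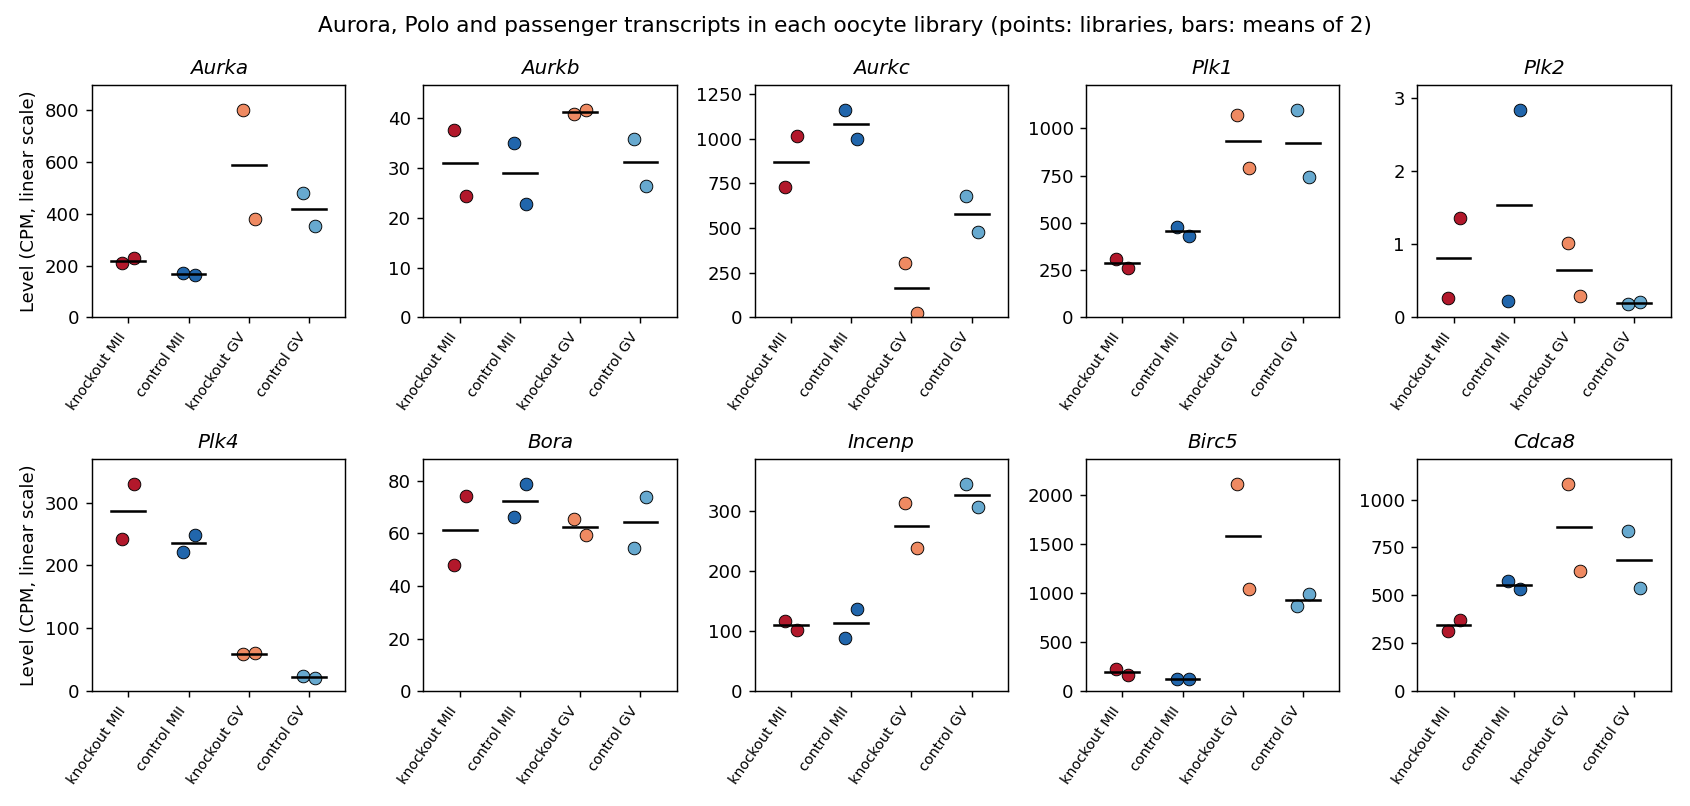
Level of each transcript in CPM (linear scale, starting at 0) in the 2 libraries of each group, with bars at the group means. Aurkc is low in both knockout GV libraries, Plk4 is high in the MII libraries, and Birc5 and Incenp are low there.

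Among the Aurora kinases, Aurkc (chr7:6995300-7003091, plus strand, mm10 as for all genes here) had the widest spread and was low in knockout GV oocytes. It held 5371 and 622 reads in knockout GV, against 14663 and 11380 reads in control GV. In CPM these were 304 and 25.7 in knockout GV, against 681 and 477 in control GV. Both knockout libraries lay below both control libraries, but the knockout libraries themselves differed 11.8-fold. The difference did not pass (log2 fold change -1.81 ± 0.79 SE, adjusted p = 0.441, edgeR quasi-likelihood with Benjamini-Hochberg adjustment over all genes), with a 95% interval of -3.57 to -0.06. One library decided its size. Without knockout GV library 1 the value was -4.48 (adjusted p = 0.00336), and without knockout GV library 2 it was -0.92 (adjusted p = 0.506).

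At MII Aurkc was at 731 and 1014 CPM in knockout oocytes, against 1162 and 1000.2 CPM in control oocytes, and the groups overlapped. The log2 fold change was -0.31 ± 0.77, with an interval of -2.01 to 1.39 (adjusted p = 0.878). Between stages Aurkc rose in knockout oocytes, by 2.40 ± 0.81 on the log2 scale in MII over GV (adjusted p = 0.031). This call was lost without either knockout MII library (adjusted p = 0.0515 without library 1 and 0.0958 without library 2), without control GV library 2 (0.05), in DESeq2 (0.0654) and with the compared libraries alone (0.0778). Without knockout GV library 2 the rise was 1.50 and without knockout GV library 1 it was 5.04. In control oocytes the value was 0.90 ± 0.77 (adjusted p = 0.355), and both MII libraries were above both GV libraries. The difference of the genotypes' stage changes was 1.50 ± 1.09 (adjusted p = 0.654), or 4.21 (adjusted p = 0.0237) without knockout GV library 1.

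Aurkb, the Aurora kinase of somatic passenger complexes (chr11:69045647-69051664, plus strand), stayed within a narrow range and passed in no comparison. It was at 37.6 and 24.4 CPM in knockout MII, 35.0 and 22.8 CPM in control MII, 40.7 and 41.6 CPM in knockout GV, and 35.8 and 26.4 CPM in control GV. The knockout GV libraries were above the control GV libraries, and the MII groups overlapped. The log2 fold changes between knockout and control were 0.40 ± 0.36 at GV (interval -0.39 to 1.20, adjusted p = 0.835) and 0.10 ± 0.36 at MII (-0.69 to 0.89, adjusted p = 0.926).

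Per kilobase, Aurkc exceeded Aurkb within each of the 8 libraries, though by very different factors. The ratio was 37.6 and 80.4 in knockout MII, 64.2 and 84.9 in control MII, 14.4 and 1.19 in knockout GV, and 36.8 and 34.9 in control GV. The lowest ratio, in knockout GV library 2, is thus near parity. Its order rests on the exon lengths, as Aurkb had 1008 reads there over 2946 bases of exon and Aurkc 622 over 1523. As a share of the summed Aurora level per kilobase, Aurkc held 37.7% and 9.34% in knockout GV, against 68.8% and 67.8% in control GV. At MII it held 83.4% and 87.0% in knockout and 90.6% and 90.0% in control oocytes. These ratios are descriptions without a test.

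**Figure D2:**
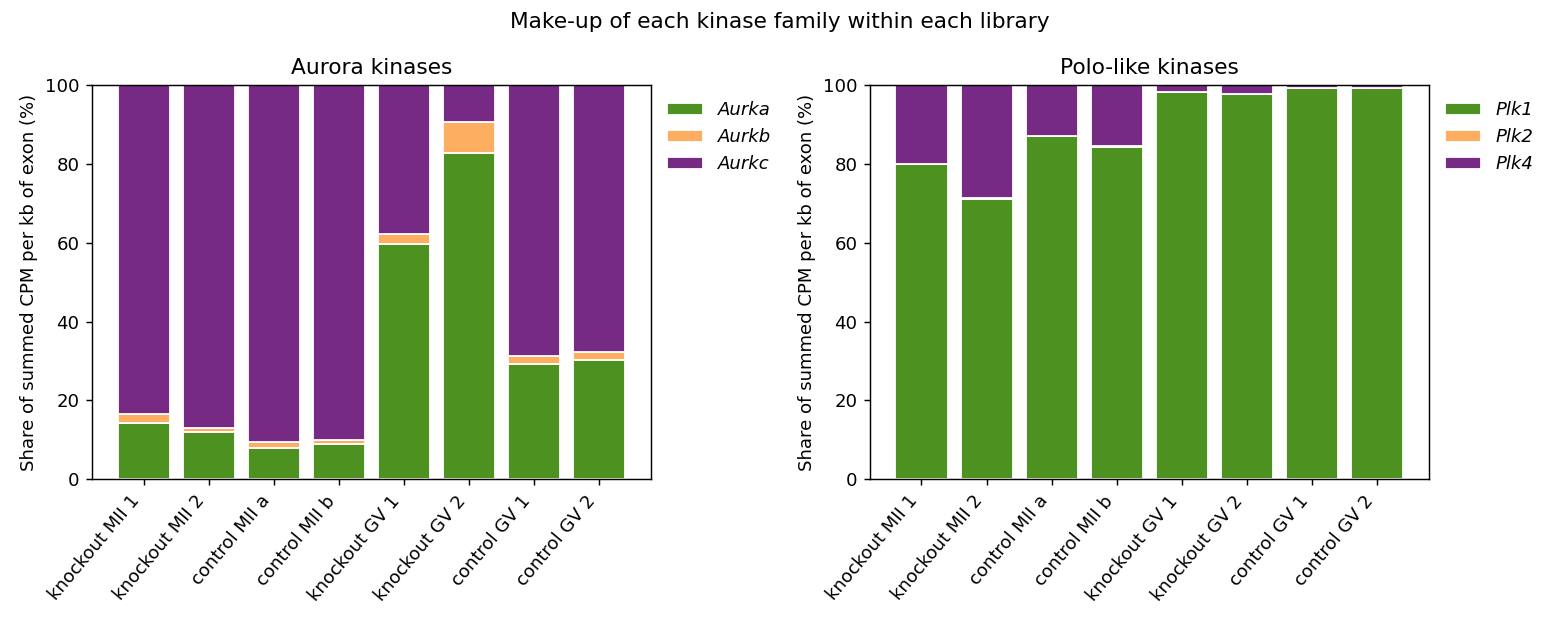
Share of each kinase in the summed CPM per kilobase of Aurka, Aurkb and Aurkc, or of Plk1, Plk2 and Plk4, within each library. Other Polo-like kinases were not in the sum. Aurkc makes up 83.4% to 90.6% of the Aurora sum in MII libraries, and Plk1 makes up 71.0% to 99.3% of its sum in all libraries.

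Aurka, the spindle pole kinase (chr2:172356190-172370535, minus strand), fell at MII in both genotypes and did not pass between genotypes. It was at 209 and 231 CPM in knockout MII, 171 and 165 CPM in control MII, 801 and 379 CPM in knockout GV, and 482 and 354 CPM in control GV. Every MII library was below every GV library. The change at MII relative to GV was -1.43 ± 0.36 in knockout (adjusted p = 0.00786) and -1.31 ± 0.36 in control oocytes (adjusted p = 0.0118). The knockout call was lost without knockout GV library 1, at -0.83 (adjusted p = 0.0663). In control oocytes the call was lost without GV library 1 (adjusted p = 0.0742) or without either MII library (0.0545 and 0.0558). At GV the genotypes overlapped, with a log2 fold change of 0.50 ± 0.35 (adjusted p = 0.733). At MII both knockout libraries were above both control libraries, by 0.39 ± 0.35 (adjusted p = 0.576).

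Plk4, the Polo-like kinase of centriole duplication (chr3:40800019-40816883, plus strand), was the member that passed between knockout and control GV oocytes. It held 1050 and 1460 reads in knockout GV, against 511 and 483 in control GV. In CPM it was at 59.5 and 60.3 in knockout GV, against 23.7 and 20.2 in control GV, and the groups did not overlap. The rise was 2.72-fold (log2 1.45 ± 0.27, interval 0.85 to 2.04, adjusted p = 0.0363, edgeR quasi-likelihood, n = 2 per group). The size held between 1.18 and 1.57 over 15 alternatives, while 9 of them lost the call. Those were each of the GV libraries left out in turn (adjusted p from 0.108 to 0.283), either control MII library left out (0.0677 and 0.0681), size factors by the median of ratios (0.0576), scaling by totals alone (0.124) and the replicate number as a block (0.0854).

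In MII oocytes Plk4 was at 243 and 330.1 CPM in knockout, against 222 and 249 CPM in control. These groups overlapped, and the log2 fold change was 0.28 ± 0.26 (interval -0.30 to 0.86, adjusted p = 0.584). The knockout effect at MII minus that at GV was -1.16 ± 0.37 with an interval of -1.99 to -0.34. That difference did not pass in edgeR's quasi-likelihood test over all genes (adjusted p = 0.271, unadjusted 0.0104). From GV to MII Plk4 rose in both genotypes, 4.78-fold in knockout (2.26 ± 0.27, adjusted p = 0.000119) and 10.7-fold in control oocytes (3.42 ± 0.29, adjusted p = 2.29e-05). Both calls remained under all alternatives run for them.

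Plk1, which acts in meiotic resumption and spindle assembly (chr7:122159439-122169873, plus strand), fell at MII in both genotypes. It was at 312 and 261 CPM in knockout MII, 477 and 434 CPM in control MII, 1071 and 791 CPM in knockout GV, and 1099 and 744 CPM in control GV. Both MII groups lay below both GV groups, and at MII both knockout libraries were below both control libraries. The change at MII relative to GV was -1.70 ± 0.31 in knockout (adjusted p = 0.00122) and -1.02 ± 0.30 in control oocytes (adjusted p = 0.0182). The control call was lost without GV library 1 (-0.72, adjusted p = 0.119) or without either MII library (0.0743 and 0.0959). Knockout against control gave 0.02 ± 0.30 at GV (interval -0.65 to 0.68), a sign that turned with other scalings, and -0.67 ± 0.30 at MII (adjusted p = 0.224, unadjusted 0.0493). Plk1 shares 156 bases of exon with Gm44985 on the opposite strand, so their reads cannot be told apart if strand was not used in counting. The processed pseudogene Plk-ps1 had at most 6 reads in a library.

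Plk2, a Polo-like kinase induced in somatic cells by growth signals (chr13:110395046-110400844, plus strand), was close to the limit of detection. It had 9 and 36 reads in knockout MII, 6 and 86 in control MII, 18 and 7 in knockout GV, and 4 and 5 in control GV. In CPM its highest value was 2.84, in control MII library b. The same library held 55.4 CPM of 12 blood and immune markers, most of it Cd74 at 36.8 CPM. The sums were 6.58 and 8.67 CPM in knockout MII, 8.11 CPM in the other control MII library, 7.05 and 8.26 CPM in knockout GV, and 6.36 and 9.14 CPM in control GV. Ptprc and Lyz2 had 0 reads in all 8 libraries. Control MII library b also had the highest granulosa and cumulus sum, at 175 CPM. Plk2 was next highest in knockout MII library 2, at 1.36 CPM. The part of both marker sets in the Plk2 values was not tested. The Plk2 interval at MII ran from -4.04 to 2.20 around a log2 fold change of -0.92 (adjusted p = 0.771), which turned to 1.83 without control MII library b.

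Bora, the partner that presents Plk1 to Aurora A (chr14:99046222-99074540, plus strand), was nearly level over the 4 groups. Its values were 47.9 and 74.2 CPM in knockout MII, 66.0 and 78.8 CPM in control MII, 65.2 and 59.4 CPM in knockout GV, and 54.3 and 73.9 CPM in control GV. All groups overlapped. Its 4 log2 differences lay between -0.25 and 0.18. The intervals were -0.72 to 0.64 for knockout against control at GV, -0.93 to 0.43 at MII, -0.71 to 0.65 for MII against GV in knockout and -0.51 to 0.86 in control oocytes.

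Of the passenger subunits other than the kinases, Birc5 and Incenp fell at MII in both genotypes. Birc5, whose protein survivin reads a phosphorylated histone mark (chr11:117849251-117855743, plus strand), was at 223 and 166 CPM in knockout MII, 121 and 120.5 CPM in control MII, 2117 and 1041 CPM in knockout GV, and 866 and 990 CPM in control GV. The knockout libraries were above the control libraries at both stages, by 0.77 ± 0.35 at GV (adjusted p = 0.474, unadjusted 0.0531) and 0.68 ± 0.35 at MII (adjusted p = 0.287, unadjusted 0.0792). Neither passed. The GV value was 0.18 without knockout GV library 1 and 1.20 without knockout GV library 2. The fall at MII was 8.12-fold in knockout (-3.02 ± 0.38, adjusted p = 0.000138) and 7.67-fold in control oocytes (-2.94 ± 0.38, adjusted p = 0.000172), and the genotypes' falls differed by -0.08 ± 0.49 (interval -1.18 to 1.01).

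Incenp, the scaffold (chr19:9872296-9899551, minus strand), was at 117 and 102 CPM in knockout MII, 88.9 and 137 CPM in control MII, 313 and 238 CPM in knockout GV, and 346 and 307 CPM in control GV. MII and GV libraries did not overlap, while the genotypes overlapped at each stage. The change at MII relative to GV was -1.33 ± 0.29 in knockout (adjusted p = 0.00405) and -1.53 ± 0.30 in control oocytes (adjusted p = 0.0019). Between genotypes the log2 fold changes were -0.24 ± 0.29 at GV and -0.04 ± 0.29 at MII, with intervals of -0.89 to 0.40 and -0.69 to 0.60.

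Cdca8, or borealin (chr4:124918465-124939311, minus strand), changed between stages in knockout oocytes. It was at 313 and 374 CPM in knockout MII, 576 and 532 CPM in control MII, 1083 and 626 CPM in knockout GV, and 834 and 538 CPM in control GV. The change at MII relative to GV was -1.32 ± 0.34 in knockout (adjusted p = 0.00955) and -0.31 ± 0.34 in control oocytes (adjusted p = 0.471). The knockout call was lost without knockout GV library 1 (-0.91, adjusted p = 0.0623) and without knockout MII library 1 (adjusted p = 0.0546). The difference between the genotypes' stage changes was -1.01 ± 0.48 and did not pass (adjusted p = 0.462, unadjusted 0.0602). At MII both knockout libraries lay below both control libraries, by -0.69 ± 0.34 (interval -1.44 to 0.06, adjusted p = 0.264). Cdca8 is on chromosome 4, 8.74 Mb from Arid1a, and shares 232 bases of exon with 9930104L06Rik on the opposite strand.

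**Figure D3:**
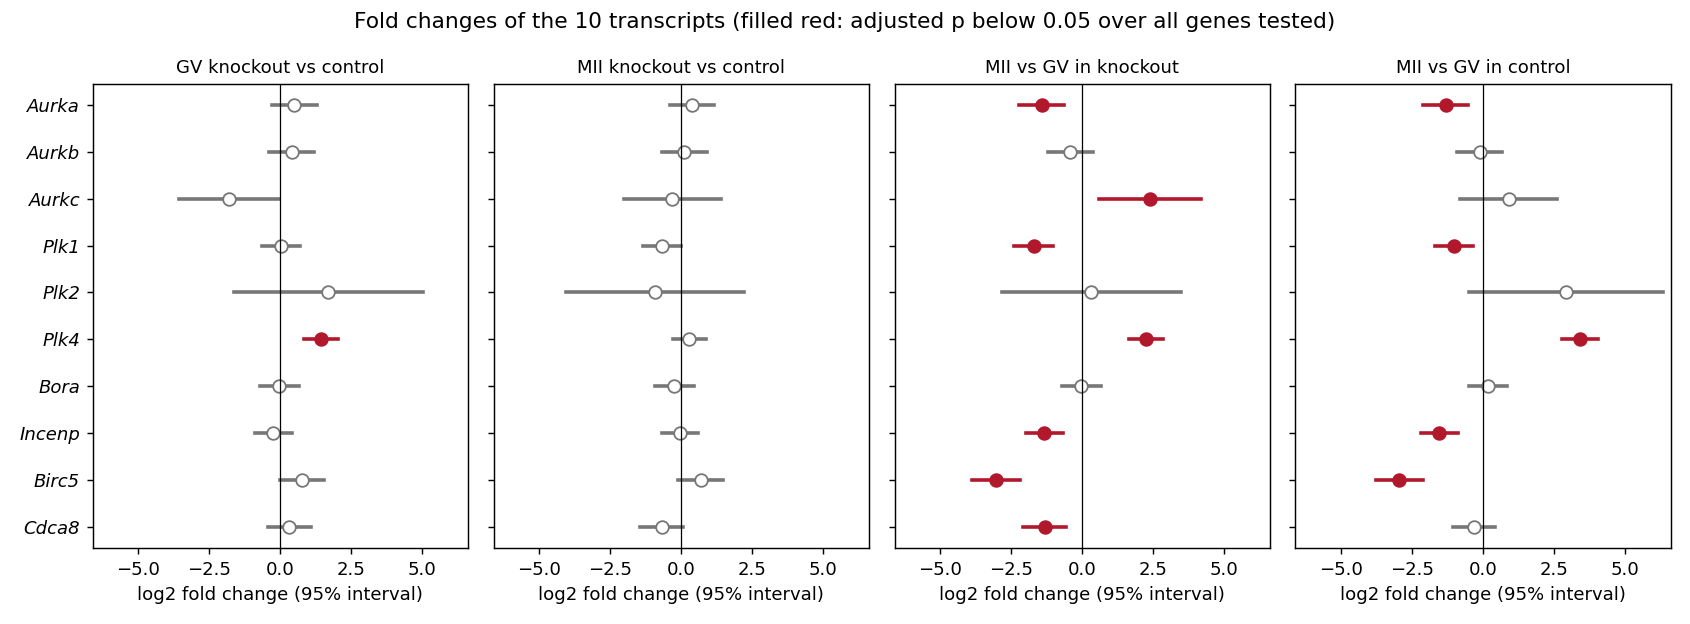
Log2 fold change of each transcript with its 95% interval in 4 comparisons; filled red points passed at an adjusted p below 0.05 over all genes tested. One point is red for knockout against control at GV (Plk4, 1.45) and none at MII, while 7 are red for MII against GV in knockout and 5 in control oocytes.

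In counts, 1 of the 10 members was called for knockout against control at GV, where 0.989% of all tested genes were called. At MII 0 of 10 were called by edgeR, against 5.14% of all genes. DESeq2, which called 1751 genes there, also called 0 members. At an unadjusted p below 0.05 there was 1, Plk1. Libraries of knockout and control did not overlap for 5 members at GV and for 4 at MII, against 46.4% of all genes at each stage. For MII against GV, 7 members were called in knockout, where 49% of all genes were called, and 5 in control oocytes, where 49.1% were. Of the calls in knockout oocytes 2 were higher and 5 lower at MII, where 19.9% and 29.1% of all genes were. In control oocytes 1 was higher and 4 were lower, against 21.2% and 27.9%. MII and GV libraries did not overlap for 8 members in knockout, against 76.9% of all genes, and for 7 in control oocytes, against 77.9%. The test of the difference between stages called 0 members by edgeR, against 0.0835% of all genes, and 1 member, Plk4, had an unadjusted p below 0.05. DESeq2, which called 343 genes there, also called 0 members. The median log2 difference at MII relative to GV was -0.86 over the members and -0.33 over all genes in knockout, and -0.21 and -0.20 in control oocytes.

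Genes that work with these kinases were read from 3 lists with 40 genes in all, of which 39 were tested. Between knockout and control at GV, 1 rose and none fell, or 2.56% of those tested against 0.989% of all genes. That was Ect2, the exchange factor that centralspindlin recruits for cytokinesis, at 23.7 and 22.6 CPM in knockout GV, against 4.69 and 4.99 CPM in control GV (2.26 ± 0.34, adjusted p = 0.0125). Its call was lost without any 1 of the 4 GV libraries (adjusted p from 0.0548 to 0.14), and also when libraries were scaled by their totals alone (0.0764). At MII 1 fell, again 2.56%, against 5.14% of all genes. It was Tacc3, a microtubule-stabilising substrate of Aurora A, at 1.22 and 2.45 CPM in knockout MII, against 7.04 and 7.83 CPM in control MII (-2.03 ± 0.40, adjusted p = 0.0204). That call was lost without knockout MII library 1 (-1.59, adjusted p = 0.082) and without control MII library b (-1.89, adjusted p = 0.0657), and with the compared libraries alone (0.169).

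For MII against GV the lists held 11 genes called higher and 12 lower in knockout and 15 higher and 11 lower in control oocytes. As a share of those tested this is 59.0% in knockout, where 49% of all genes were called, and 66.7% in control oocytes, where 49.1% were, so neither share is read as a result about the lists. The list named kinase activators and regulators held 12 genes, among them the Aurora A substrate Tacc3. In that list Nedd1, which brings γ-tubulin to spindles, rose to 458 and 474 CPM in knockout MII, against 70.5 and 101 CPM in knockout GV (2.44 ± 0.28). Cep192, which recruits Aurora A and Plk1 to spindle poles, rose by 1.72 in knockout and 1.59 in control oocytes, and the microtubule polymerase Ckap5 rose by 0.97 in knockout and 1.60 in control oocytes. Aurkaip1, an Aurora A interacting protein, fell, with changes of -4.93 in knockout and -4.71 in control oocytes. Tacc3 fell the most of the named genes, with log2 changes of -9.61 in knockout and -7.24 in control oocytes. Among 13 tested Polo partners and targets, Btrc, the ubiquitin ligase subunit that recognises phosphorylated Plk4, fell, with changes of -5.30 in knockout and -4.85 in control oocytes. Its relative Fbxw11 rose by 1.37 ± 0.39 in knockout and 1.54 ± 0.39 in control oocytes. The knockout call was lost without knockout GV library 1 (0.86, adjusted p = 0.13), and the value was 2.07 without knockout GV library 2. The control call was lost without control GV library 1 (adjusted p = 0.0694) or control MII library b (0.0507). Bub1, a checkpoint kinase that marks centromeres for the passenger complex, fell, with changes of -4.79 in knockout and -4.68 in control oocytes. It had 93 and 13 reads in knockout MII, against 568 and 1436 reads in knockout GV. The knockout change of Bub1 was not rerun with a library left out. Mastl, the kinase that restrains the phosphatase opposing Cdk1, rose by 0.92 in knockout (adjusted p = 0.0363) and 1.48 in control oocytes. Its knockout call was lost in 9 of 15 alternatives, with 0.44 (adjusted p = 0.344) without knockout MII library 1, 0.62 (0.264) without knockout GV library 1, adjusted p of 0.0647 with the replicate number as a block and 0.0751 with totals alone. Wee1, an inhibitor of Cdk1, had 18 and 1 reads in knockout MII, against 153 and 466 reads in knockout GV, and fell by 5.54. The value was -8.41 without knockout MII library 1 and -4.69 without knockout MII library 2. In control oocytes Wee1 had a change of -2.07 and did not pass (adjusted p = 0.0721), and the genotypes' stage changes did not differ past the threshold (adjusted p = 0.339). Among 14 passenger recruitment and target genes, Mad2l1, of the spindle checkpoint, rose by 2.00 ± 0.33 in knockout and 2.31 ± 0.33 in control oocytes. Sgo1, a protector of centromeric cohesion, rose by 2.09 ± 0.39 in knockout and 2.07 ± 0.39 in control oocytes. Kif2c, a microtubule depolymerase regulated by Aurora B, fell, with changes of -2.34 in knockout and -2.48 in control oocytes, and the checkpoint kinase Ttk fell, with -1.63 in knockout and -1.51 in control oocytes. Of the knockout changes that were rerun, leaving out 1 library moved 3 others by over 1.5 times in fold (not log2), with the call kept. In log2, Sgo1 moved to 2.69 without knockout GV library 2. Without knockout MII library 2, Ttk moved to -2.30 and Aurkaip1 to -5.85.

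**Figure D4:**
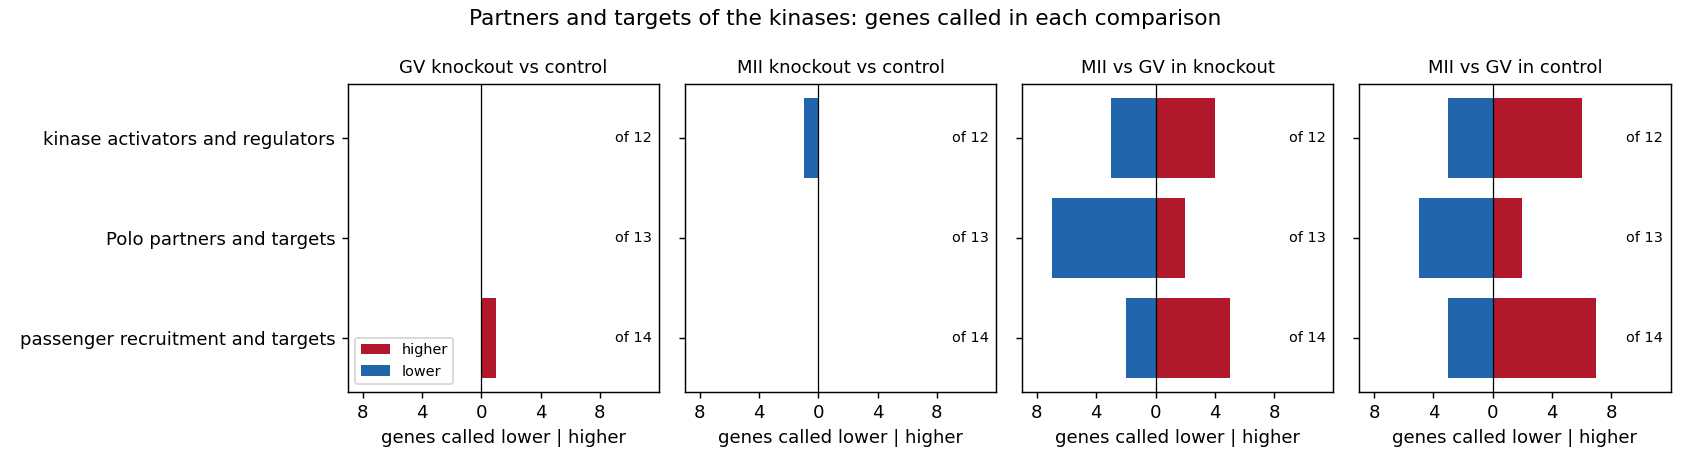
Number of genes called lower (left, blue) and higher (right, red) at an adjusted p below 0.05 in each list and comparison; the number at the right of each row is how many were tested. The genotype comparisons have 1 call each, the stage comparisons 23 in knockout and 26 in control oocytes.

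The genes most like Plk4 in their pattern over the 8 libraries were Tab2, Casp8ap2 and Tmtc3. Likeness was the root mean square difference between log2 levels, each centred on its mean, and was 0.17 for Tab2, 0.17 for Casp8ap2 and 0.19 for Tmtc3. Tab2 was at 185 and 265 CPM in knockout MII, 161 and 162 CPM in control MII, 42.0 and 37.8 CPM in knockout GV, and 21.5 and 16.9 CPM in control GV. Within the members, Aurka and Birc5 had the highest correlation of log2 levels (r = 0.95) and Incenp and Birc5 the next (0.92), over 8 libraries that fall into 2 stages. These values describe the libraries and carry no test.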

How the data were processed

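RNA was measured by sequencing in 8 oocyte libraries. The deposited values are whole read counts per gene. Per the submitters' processing notes, Bowtie2, HTSeq and edgeR were used with the mm10 build; no source used here gives versions, annotation, strand setting or RNA selection. Bowtie2 alone does not place reads across introns. The 5 summary entries that name no gene, with 22.0% to 35.13% of reads per library, were left out. A pair of columns shared 1 header and were used as control MII libraries a and b, with no replicate number.

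Counts of genes kept by filterByExpr (15572) were scaled by TMM and tested with edgeR 4.0.16 in R 4.3.3 (glmQLFit and glmQLFTest), in 1 model with a term per group over all 8 libraries. Calls are at a Benjamini-Hochberg adjusted p under 0.05 over all genes tested. SE was taken as |log2 fold change| / sqrt(F). Printed CPM use the TMM-scaled library sizes. Marker values and their sums use plain totals of reads in genes. Depth was 19587421 to 33289150 reads in genes, and 3 reads equal 0.0901 to 0.153 CPM, a limit of counting error only. On simulated counts with 15572 genes, changes of log2 1, 2 and 4 were given to 52 to 82 genes per size and comparison. The comparison of knockout with control recovered 12.2%, 64.6% and 98.4% at GV and 10.6%, 76.8% and 96.2% at MII. The test of the difference between stages recovered fewer, at 6.2%, 26.8% and 89.1%. These rates are pooled over the changed genes, so they give no rate for a single member such as Plk2 or Aurkc. Replicates differed well beyond sampling noise (chi-square per degree of freedom 48.5 to 106).

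Alternatives were other scalings and filters, DESeq2 1.42.0, the compared libraries alone, each library left out and the replicate number as a block. Genes named are all 10 members, Arid1a, each listed partner called between genotypes, the 2 largest called stage changes per direction and list, and the 3 genes most like a member called between genotypes. For a listed partner, alternatives were run only in the comparisons for which it was chosen in this way. The members and lists were chosen with earlier results of these data known. Gene positions, exon lengths and coding sequences are from GENCODE M21, promoters from RefSeq.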

Additional observations from a re-analysis of the deposited data

How the results depend on the processing

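Over 50 member results and 703 alternative values, 634 kept direction and side of the threshold, 23 lost a call, 8 gained one and 38 changed sign; the cause was not tested unless stated. The stage changes of Birc5, Incenp and Plk4 kept their calls in both genotypes under all alternatives run. Genes called for knockout against control at GV numbered 154 (93 higher, 61 lower), 121 with library totals only (59 higher, 62 lower), 527 with no filter, 702 with the compared libraries alone (345 higher, 357 lower), 526 in DESeq2 and 29 to 187 with a library left out. Members called there were 1, but 0 with RLE size factors, library totals or the replicate block, 2 with no filter (Aurkc was added at -1.82, adjusted p = 5.87e-06), and 0 to 1 with a library left out. At MII 800 genes became 1829 with no filter, 392 with the compared libraries alone, 1751 in DESeq2 and 440 to 771 with a library left out. The difference between stages gave 13 genes, 1 with RLE size factors, 2 with library totals, 498 with no filter, 41 with a mean of at least 5 CPM, 343 in DESeq2 and 0 to 23 with a library left out; it gave 0 members, 1 with no filter (Aurkc, adjusted p = 0.0412) and 0 to 1 with a library left out. For MII against GV in control oocytes, 5075 to 7974 genes and 3 to 6 members were called with a library left out, and Aurkc passed with no filter, with the compared libraries alone or without either knockout GV library (adjusted p from 0.0265 to 0.0406).

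Signs turned for Plk1 at GV with RLE size factors (-0.024), library totals (-0.27), a mean of at least 5 CPM (-0.042) and DESeq2 (-0.024); for Bora at MII against GV in knockout with library totals (0.017); and for the difference between stages with library totals in Aurka (0.16), Bora (0.015) and Birc5 (0.23). Library totals moved the median of all genes by -0.27 at GV, -0.16 for control maturation and 0.21 for the difference between stages; RLE moved control maturation by -0.13. With a library left out, log2 values that crossed 0 had these ranges. For knockout against control at GV they were Aurka -0.13 to 0.95, Plk1 -0.24 to 0.33, Bora -0.24 to 0.20, Cdca8 -0.12 to 0.67. For knockout against control at MII they were Aurkb -0.23 to 0.47, Plk2 -2.44 to 1.83, Bora -0.52 to 0.044, Incenp -0.30 to 0.37. For MII against GV in control oocytes they were Aurkb -0.50 to 0.12, Bora -0.043 to 0.40, Cdca8 -0.61 to 0.030. For MII against GV in knockout oocytes they were Plk2 -1.26 to 1.41, Bora -0.38 to 0.19. For the difference between stages they were Aurka -0.56 to 0.56, Aurkb -0.64 to 0.065, Plk2 -4.14 to 0.14, Bora -0.49 to 0.076, Incenp -0.056 to 0.61, Birc5 -0.51 to 0.55. The block changed the GV call of Plk4 (1.43, adjusted p = 0.0854) and called 133 genes at GV and 7736 genes and 7 members for MII against GV in knockout. Over 8673 genes, same-numbered libraries deviated together with r = 0.318 between knockout and control GV. For the other pairs, which cross stages, r was -0.001 and -0.008. The labels do not say that the numbers mark shared animals, so the main model did not pair libraries by them. Whether same-numbered GV libraries share a source was not tested. No paired analysis was possible for comparisons with control MII because its columns carry no distinct numbers. Depth limits Plk2, with 4 to 86 reads per library.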
